A study of Homo sapiens with 6 samples.

Results

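The 9 genes described here encode the enzymes that make fatty acids from acetyl-CoA and that lengthen and desaturate them: SCD, FASN, ACACA, ACLY, ACSS2, ELOVL5, ELOVL6, FADS1 and FADS2. They are 9 of 61228 gene names in the count table and 9 of the 14704 genes that passed the filter on low counts, so all 9 were measured. The genes were chosen by name with their values in the comparison of knockout and control cells already known, so those values are given as a description, with no p-value. Calls of the 9 by edgeR are likewise a description and not a test of them. The libraries are of polyadenylated RNA of MDA-MB-231, a triple-negative line of human breast cancer, in 2 groups of 3 libraries. The knockout group (KO) is labelled by treatment as a knockout of ETV1, ETV4 and ETV5, made by nucleofection of Cas9 with guides to those genes, while its titles name ETV4 alone. The control group received Cas9 with control guides. Both groups were grown as 3D cultures in collagen I and released with collagenase; the protocol gives 2 collagen concentrations without saying which was used. The 3 KO library names share the tag c39, which is not explained. If that is 1 clone, a difference between the groups and a difference of that clone cannot be told apart. Nothing states whether replicates were separate cultures, so errors and p-values measure the spread between these libraries, which may be technical. Values are CPM, counts divided by the TMM-scaled library total and brought to a common total, and an error after ± is the SD over n = 3 libraries. A percentage of all genes in brackets after a count of calls is the share of all tested genes called in that direction by the same fit.

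Cells build palmitate from 2-carbon units. ATP-citrate lyase (ACLY) and acetyl-CoA synthetase (ACSS2) supply cytosolic acetyl-CoA from citrate and from acetate, acetyl-CoA carboxylase (ACACA) turns it into malonyl-CoA, and fatty acid synthase (FASN) joins the units. ELOVL6 lengthens the saturated product, stearoyl-CoA desaturase (SCD) puts the first double bond into it, and FADS2, ELOVL5 and FADS1 act in turn on the essential polyunsaturated fatty acids taken up from outside. Transcription of these genes is classically driven by SREBP factors, which are held in the endoplasmic reticulum by INSIG proteins while sterols are plentiful. FASN and SCD are often raised in carcinomas, those of the breast included.

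RefSeq (GRCh38.p14) held 13 promoter windows for 8 of the 9 genes, each with 250 bases before and 50 after a transcription start; FASN had no entry. Windows of ACLY and of FADS2 overlap each other in part. The sequences of 4 windows are shown, for SCD and FADS2, whose transcripts were called lower in KO, for ACLY, which lay below the controls in each KO library without being called, and for ELOVL5, whose groups overlapped. The SCD window is chr10:100346983-100347282 on the plus strand, the FADS2 window chr11:61816154-61816453 on the plus strand, the ACLY window chr17:41918973-41919272 on the minus strand and the ELOVL5 window chr6:53348901-53349200 on the minus strand. Capitals mark the CCAAT box bound by NF-Y (CCAAT, or ATTGG on the other strand) and a loose sterol-element pattern, TCANNCCAC.
SCD: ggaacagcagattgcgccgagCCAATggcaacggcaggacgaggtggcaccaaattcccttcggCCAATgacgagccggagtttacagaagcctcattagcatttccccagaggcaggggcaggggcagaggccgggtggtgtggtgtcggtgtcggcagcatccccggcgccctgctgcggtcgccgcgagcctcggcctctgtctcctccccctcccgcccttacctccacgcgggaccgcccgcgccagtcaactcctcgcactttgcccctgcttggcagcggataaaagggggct
FADS2: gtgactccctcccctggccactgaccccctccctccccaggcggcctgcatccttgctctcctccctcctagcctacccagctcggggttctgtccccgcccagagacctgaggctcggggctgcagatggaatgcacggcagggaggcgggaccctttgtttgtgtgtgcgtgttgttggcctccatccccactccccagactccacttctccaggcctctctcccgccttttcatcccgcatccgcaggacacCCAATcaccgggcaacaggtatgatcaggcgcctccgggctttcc
ACLY: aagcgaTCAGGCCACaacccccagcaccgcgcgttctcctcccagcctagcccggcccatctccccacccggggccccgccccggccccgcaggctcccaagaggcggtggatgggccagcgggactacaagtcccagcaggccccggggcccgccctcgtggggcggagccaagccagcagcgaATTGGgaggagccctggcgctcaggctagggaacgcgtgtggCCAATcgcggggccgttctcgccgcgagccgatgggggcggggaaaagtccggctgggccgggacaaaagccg
ELOVL5: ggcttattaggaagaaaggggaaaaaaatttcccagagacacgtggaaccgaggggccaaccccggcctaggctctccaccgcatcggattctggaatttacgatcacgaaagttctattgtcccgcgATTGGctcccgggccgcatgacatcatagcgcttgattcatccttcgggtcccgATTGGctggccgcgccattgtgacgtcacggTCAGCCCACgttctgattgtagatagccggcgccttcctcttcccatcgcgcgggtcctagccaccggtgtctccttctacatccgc

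Both strands of each window were searched for 5 motifs. CCAAT was in 8 of the 13 windows, against 34.6% of 35116 RefSeq promoter windows of the same length. SCD held 2 copies, beginning 229 and 186 bases before its start, and the printed FADS2 window held 1, beginning at base 6 after its start. Positions are counted from the RefSeq start of a window. For the printed windows that start is not the end of the GENCODE gene span given below. The printed FADS2 and ACLY windows lie inside those spans. The TCANNCCAC pattern was in 2 windows, those of ACLY and ELOVL5 printed above, against 3.82% of all windows. The ELOVL5 copy began 37 bases before the start and the ACLY copy 244 bases before it. The E-box CACGTG was in the ELOVL5 window alone (7.26% of all windows), the GC box GGGCGG was in 10 of 13 (45%), and the ETS-type core CCGGAA was in 1, an ACSS2 window (17.2%). In 2 ACACA windows some GC-box matches overlapped one another. No match of one motif overlapped a match of another. A match describes letters in these windows and is not evidence of binding.

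Totals ran from 18042601 to 23232770 counts per library, and a count of 0 allows a level of up to 0.128 to 0.165 CPM (3 counts), which covers counting error only. Replicate 3 of each group stood apart from replicates 1 and 2: chi-square per degree of freedom over genes was 17.8 to 18.8 against replicate 3, but 5.76 between KO replicates 1 and 2 and 3.88 between control replicates 1 and 2. Results are therefore also given without both of those libraries. Of the line's 10 mesenchymal markers, SPARC was under 1 CPM; the list summed to 8512 to 10048 CPM in KO and 9694 to 11832 CPM in control, with vimentin (VIM) at 5401 CPM in KO and 6661 CPM in control. The luminal markers ESR1, PGR and CDH1 stayed under 1 CPM in every library. The 10 luminal markers together held 568 to 595 CPM in KO and 869 to 909 CPM in control, chiefly KRT19. The 7 leukocyte markers summed to 2.86 to 3.30 CPM in KO and 6.81 to 8.08 CPM in control, with CD3E and MS4A1 at 0 in all libraries. Of these sums LYZ made up 1.55 CPM on average in KO and 6.03 CPM in control. The part of either list in the results below was not tested. The adipocyte markers ADIPOQ, LEP and CIDEA were at 0 in all 6 libraries, and the 8 adipocyte markers summed to 106 to 128 CPM in KO and 125 to 154 CPM in control, nearly all of it PPARG. Of the targeted genes, ETV1 averaged 142 ± 11.1 CPM in KO and 223 ± 13.5 CPM in control (edgeR adjusted p = 0.00125). ETV4 averaged 63.7 ± 2.03 CPM in KO and 93.9 ± 2.11 CPM in control (edgeR adjusted p = 6.12e-04). ETV5 averaged 113 ± 1.23 CPM in KO and 112 ± 4.77 CPM in control (edgeR adjusted p = 0.932), and its groups overlapped. Whole-gene counts do not show how far a guide disrupted its target. In bulk libraries, fewer cells that express a gene and less RNA per cell cannot be told apart.

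Over the 9 genes, the 3 desaturases, ACSS2, FASN and ACLY were lower in each KO library than in any control library. Of these, edgeR called all but ACLY. ACACA, ELOVL5 and ELOVL6 were not lower. The difference was widest for SCD, 1.96-fold lower, and ACSS2, 1.87-fold lower, and intermediate for FADS2, 1.57-fold lower, and FASN, 1.49-fold lower. The genes together summed to 2835, 2796 and 2597 CPM in KO replicates 1, 2 and 3, against 4239, 4145 and 3898 CPM in the controls. Their combined share of all counts was 0.261% to 0.283% in KO and 0.395% to 0.419% in control. The median log2 fold change of the 9 was -0.31, beside 0.00 over all genes tested. By edgeR, 5 of the 9 were called lower, where 6.42% of all tested genes were called lower, and 0 were called higher, where 3.28% of all were; at an unadjusted p under 0.05 1 was higher, and DESeq2 called 6 lower and 0 higher. As the comparison also chose the genes, nothing is read from that count or from which of the 9 were called. Every KO library lay below every control library for 6 of the 9, against 16.8% of all genes, and above for 1 (ELOVL6), against 14.9%.

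**Figure D1:**
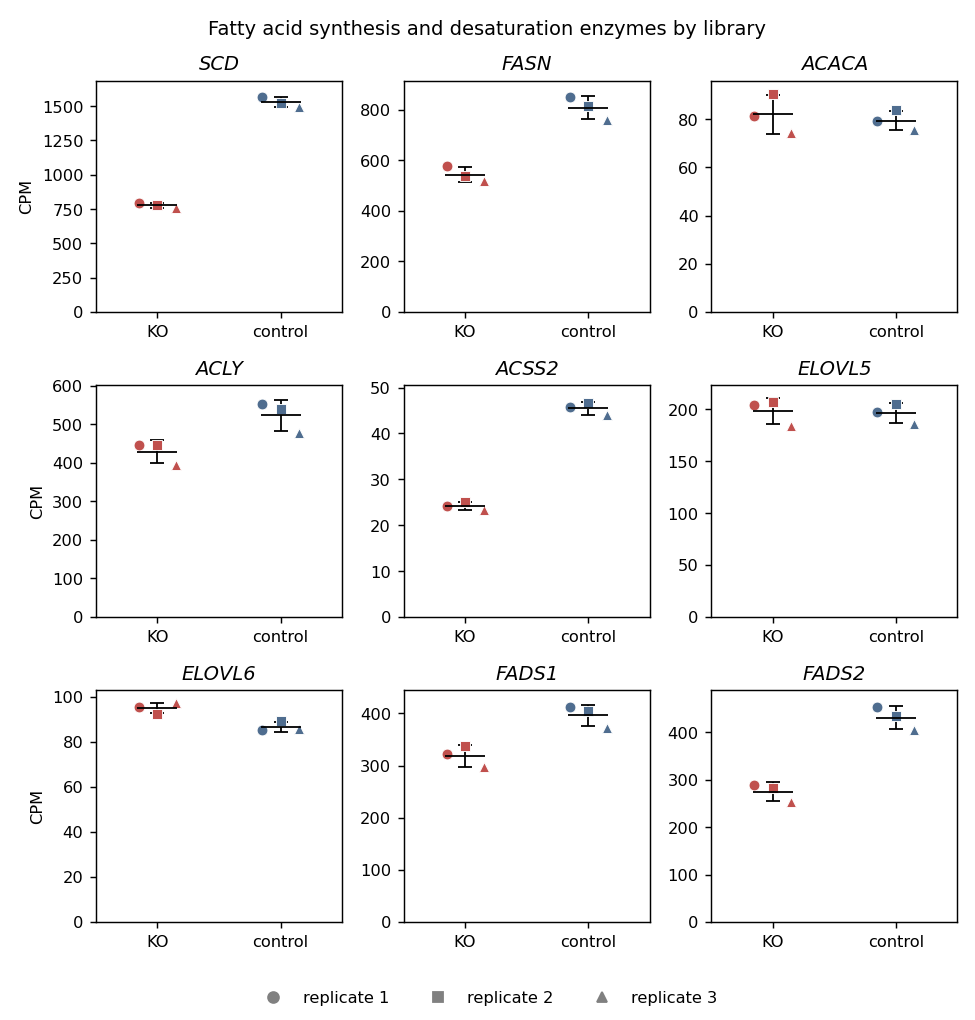
CPM of each of the 9 enzymes (y axes, from 0) in the 3 KO and 3 control libraries; symbols mark replicates 1, 2 and 3, bars the group mean and SD. SCD, FASN, ACLY, ACSS2, FADS1 and FADS2 do not overlap between groups and are lower in KO, ELOVL6 does not overlap and is higher, and ACACA and ELOVL5 overlap.

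Both acetyl-CoA suppliers were lower in each KO library, ACSS2 by more than ACLY. ACSS2 (ENSG00000131069, GRCh38 chromosome 20, 34872146 to 34927962, plus strand) measured 24.3, 25.1 and 23.3 CPM in KO, against 45.7, 46.8 and 44.0 CPM in control. The groups were separated by far more than the spread within either, and the log2 fold change was -0.91 (SE 0.07). ACLY (ENSG00000131473, chromosome 17, 41866908 to 41930542, minus strand) measured 446, 445 and 394 CPM in KO and 552, 541 and 476 CPM in control. Its KO values were all below the lowest control, but replicate 3 of the control group came within about the spread of a group, and the log2 fold change was -0.29 (SE 0.08). With the replicate number as a block the SE for ACLY was 0.03 and its log2 fold change -0.29. The ratio of ACSS2 to ACLY counts within a library, which no scaling can change, was 0.0544 to 0.0592 in KO and 0.0829 to 0.0923 in control, so the acetate-using enzyme was lower relative to the citrate-using one in each KO library.

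The committed steps parted. FASN (ENSG00000169710, chromosome 17, 82078333 to 82098332, minus strand) measured 576, 538 and 516 CPM in KO and 850, 816 and 758 CPM in control, a log2 fold change of -0.57 (SE 0.07), or 1.49-fold lower. ACACA (ENSG00000278540, chromosome 17, 37084988 to 37406818, minus strand), which makes the malonyl-CoA that FASN uses, measured 81.1, 90.6 and 74.4 CPM in KO and 79.1, 83.7 and 75.6 CPM in control. The ACACA groups overlapped, with a log2 fold change of 0.05 (SE 0.08). Within libraries there were 5.93 to 7.10 FASN counts per ACACA count in KO and 9.75 to 10.7 in control, and FASN per ACLY averaged 1.27 ± 0.05 in KO and 1.55 ± 0.04 in control. FASN was therefore lower relative to ACLY and ACACA, but not relative to ACSS2, whose log2 fold change of -0.91 was the more negative.

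Neither elongase was lower. ELOVL6 (ENSG00000170522, chromosome 4, 110045846 to 110199199, minus strand), which takes palmitate to stearate, measured 95.2, 92.4 and 97.0 CPM in KO and 85.0, 88.9 and 85.4 CPM in control. Each KO value exceeded each control value by a small margin, a log2 fold change of 0.13 (SE 0.06). ELOVL5 (ENSG00000012660, chromosome 6, 53267398 to 53349179, minus strand), which lengthens polyunsaturated chains between the FADS2 and FADS1 steps, measured 204, 207 and 183 CPM in KO and 197, 205 and 186 CPM in control. Its groups overlapped, and the log2 fold change was 0.02 (SE 0.07). The ratio of ELOVL5 to ELOVL6 counts was 2.09 ± 0.18 in KO and 2.27 ± 0.08 in control, and also overlapped.

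All 3 desaturases were lower, to unequal degrees. SCD (ENSG00000099194, chromosome 10, 100347124 to 100364834, plus strand), which makes oleate and palmitoleate, measured 797, 778 and 759 CPM in KO and 1566, 1525 and 1494 CPM in control. The groups lay far apart beside the spread within either, and the log2 fold change was -0.97 (SE 0.06), or 1.96-fold lower. There were 1.38 to 1.47 SCD counts per FASN count in KO and 1.84 to 1.97 in control, so SCD was lower relative to FASN as well. SCDP1, its processed pseudogene, had at most 3 counts in any library.

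FADS2 and FADS1, the delta-6 and delta-5 desaturases, lie on opposite strands of chromosome 11, and the annotated span of FADS1 lies within that of FADS2. FADS2 (ENSG00000134824, 61792980 to 61867354, plus strand) measured 290, 282 and 253 CPM in KO and 453, 435 and 406 CPM in control, a log2 fold change of -0.65 (SE 0.07). FADS1 (ENSG00000149485, 61799625 to 61829318, minus strand) measured 322, 338 and 297 CPM in KO and 412, 404 and 373 CPM in control, a log2 fold change of -0.31 (SE 0.07). Neither gene overlapped between groups; with 1 library left out FADS1 was called lower in 2 of 6 fits, those without a replicate 3, and FADS2 in 6 of 6. The FADS2 to FADS1 ratio was 0.901, 0.836 and 0.853 in KO replicates 1, 2 and 3, against 1.1, 1.08 and 1.09 in control, so the first desaturase of the polyunsaturated route was lower relative to the second. In GENCODE the exons of the 2 genes overlap over 490 bases on opposite strands, and FADS2 exons share 49 bases with FEN1, a gene on the same strand. The library kit keeps strand but the strand setting of the counting is not given in the sources used here, so reads of that stretch could be divided differently.

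**Figure D2:**
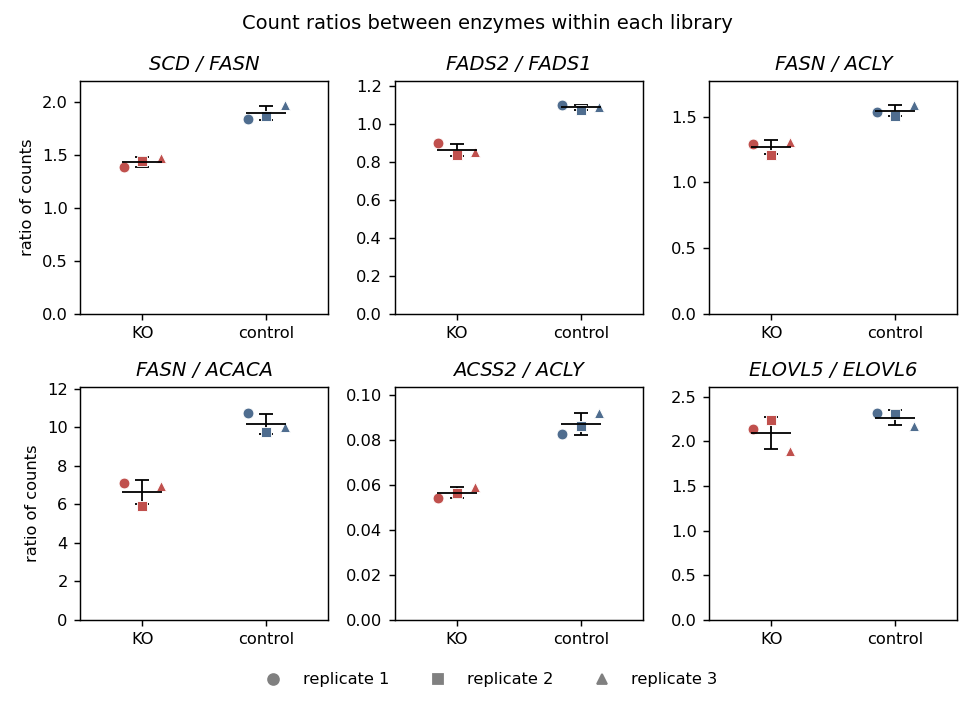
Ratio of raw counts (y axes, from 0) between pairs of the enzymes within each KO and control library; symbols mark replicates, bars the mean and SD. The KO ratios lie below the control ratios for SCD to FASN, FADS2 to FADS1, FASN to ACLY, FASN to ACACA and ACSS2 to ACLY, and the ELOVL5 to ELOVL6 ratios overlap.

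Expressed per kilobase of the principal GENCODE transcript, SCD had the highest level in both groups, 145 ± 3.60 CPM per kb in KO and 285 ± 6.70 CPM per kb in control. ACLY came next, with 98.7 ± 6.85 CPM per kb in KO and 120 ± 9.40 CPM per kb in control. FADS2, with 75.8 ± 5.36 CPM per kb in KO and 119 ± 6.58 CPM per kb in control, did not differ from ACLY beyond the spread in the controls. FADS2, FADS1, ELOVL5 and FASN lay between 63.4 and 75.8 CPM per kb in KO, where FADS2, FADS1 and ELOVL5 lay within about 1 SD of their neighbours and FASN was lowest of the 4 by more than 1 SD. ELOVL6, ACACA and ACSS2 were the lowest in KO, at 14.7, 8.59 and 7.91 CPM per kb, against 13.4, 8.32 and 14.8 CPM per kb in control, and ACACA and ACSS2 did not differ beyond their spread in KO. The order in the middle depends on the length used. Per kb of all annotated exons, FADS1 and FADS2 ranked below FASN and ELOVL5 in both groups, with SCD and ACLY still first.

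Replicate 3 had the lowest CPM of its group, in KO and in control alike, for 8 of the 9 genes, against 29% of all tested genes; ELOVL6 was the exception. The differences between same-numbered libraries were close to each other for some of the genes: -0.97, -0.97 and -0.98 on the log2 scale for SCD, -0.91, -0.89 and -0.91 for ACSS2 and -0.56, -0.60 and -0.56 for FASN. They varied more, beside their size, for ELOVL6, at 0.16, 0.05 and 0.18, and took both signs for ACACA, at 0.04, 0.11 and -0.02, and ELOVL5, at 0.05, 0.01 and -0.02. With the replicate number as a block, edgeR called 6 of the 9 lower (16.7% of all genes) and 1 higher (17.2% of all), adding ACLY and ELOVL6. Without both replicate 3 libraries 6 were called lower (13.7% of all genes), ACLY being the addition, and 0 higher (11.7% of all), with SCD at -0.97 (SE 0.04) and ELOVL6 at 0.11 (SE 0.05).

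Among 10799 other genes with a mean of at least 5 CPM, the 5 whose log2 profile over the 6 libraries lay nearest the mean profile of the 9 enzymes were PTTG1IP, ANTXR2, BCL2L1, ARHGAP29 and TRIB1, with a root mean square difference of 0.02 to 0.03. BCL2L1, which encodes the survival protein BCL-XL, averaged 485 ± 17.4 CPM in KO and 632 ± 27.2 CPM in control. The enzymes themselves lay farther from their own mean, from 0.04 for FADS1 to 0.29 for SCD, since the mean runs between those that were lower and those that were not.

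The genes that control SREBP were in part lower in KO. Of 17 measured members of the SREBP machinery, 5 fell, 0 rose and 12 did not pass edgeR's test, with a median log2 fold change of -0.06. Of all tested genes 6.42% fell and 3.28% rose. In the machinery 0 rose at an unadjusted p under 0.05 and by DESeq2. With the replicate block 7 fell (16.7% of all genes) and 2 rose (17.2% of all). Without both replicate 3 libraries 6 fell (13.7% of all) and 1 rose (11.7% of all). The list was written with earlier results of these data known, so its counts are a description and nothing is read from them. INSIG1 and LPIN1 are counted again among the other SREBP targets below. Adjusted p-values given here are of single genes and do not test the list. INSIG1, an SREBP retention protein and itself an SREBP target, measured 93.5, 86.1 and 76.5 CPM in KO and 178, 166 and 154 CPM in control (log2 fold change -0.96, SE 0.09, edgeR adjusted p = 3.79e-04). Its close relative INSIG2 measured 22.4, 23.2 and 23.3 CPM in KO and 40.2, 42.0 and 39.3 CPM in control (log2 fold change -0.82, SE 0.07, edgeR adjusted p = 2.48e-04). SREBF2, the gene of the mainly cholesterol-directed factor, averaged 146 ± 6.07 CPM in KO and 241 ± 14.4 CPM in control (log2 fold change -0.73, SE 0.07, edgeR adjusted p = 3.95e-04). Both INSIG genes and SREBF2 were thus well separated between groups, as was LPIN1, a phosphatidate phosphatase (78.2 ± 4.89 CPM in KO, 126 ± 2.75 CPM in control). RNF145, a sterol-responsive ubiquitin ligase, fell less (log2 fold change -0.30, SE 0.07).

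SREBF1, the gene of the factor tied most closely to fatty acid synthesis, measured 187, 167 and 175 CPM in KO and 214, 213 and 189 CPM in control. The groups did not overlap, but by a narrow margin, and the gene did not pass (log2 fold change -0.21, SE 0.07, edgeR adjusted p = 0.107; adjusted p = 2.54e-05 with the replicate block, 3.54e-04 without both replicate 3 libraries and 0.0468 without control replicate 3). SREBF1 counts do not separate its 1a and 1c transcripts. Other drivers of lipogenic genes did not pass: the LXR genes NR1H3 (15.4 ± 1.29 CPM in KO, 16.5 ± 0.39 CPM in control) and NR1H2 (73.5 ± 8.15 CPM in KO, 72.3 ± 5.23 CPM in control), and MLXIPL, the gene of ChREBP, at 2.44 ± 0.59 CPM in KO and 3.46 ± 0.88 CPM in control; MLXIPL passed without both replicate 3 libraries (adjusted p = 0.0175). In the list of 25 such partners, 2 fell (6.42% of all tested genes), 2 rose (3.28% of all) and 21 did not pass. The repressors BHLHE40 (82.6 to 87.0 CPM in KO, 117 to 141 CPM in control) and BHLHE41 (5.50 ± 0.77 CPM in KO, 9.26 ± 1.09 CPM in control) fell by edgeR (adjusted p = 0.00147 and 0.0147). The NF-Y subunit NFYA (0.23, SE 0.05; adjusted p by edgeR 0.0258) and the coactivator CREBBP (0.29, SE 0.06) rose; NFYA passed in 1 of 6 fits with 1 library left out, that without KO replicate 3, and BHLHE41 and CREBBP in 3 of 6 each. With the block 6 of the list fell (16.7% of all genes) and 2 rose (17.2% of all). Without both replicate 3 libraries 6 fell (13.7% of all) and 2 rose (11.7% of all). This list was also written with earlier results known, and its counts are a description.

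**Figure D3:**
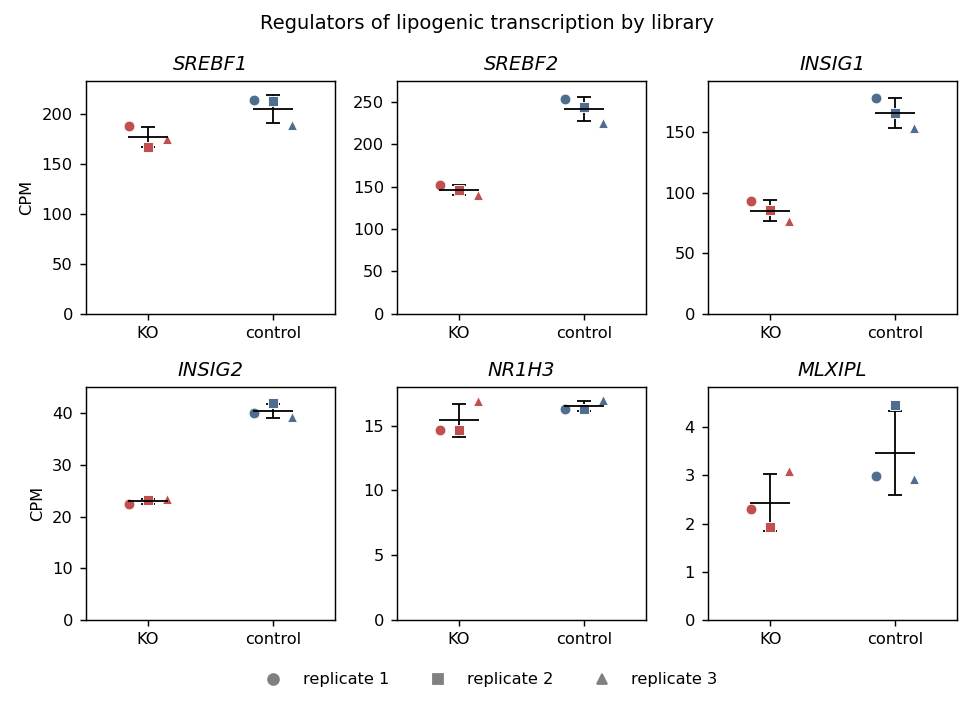
CPM of 6 regulator genes (y axes, from 0) in the 3 KO and 3 control libraries; symbols mark replicates, bars the mean and SD. SREBF2, INSIG1 and INSIG2 are lower in KO with a wide gap, SREBF1 with a narrow gap, and NR1H3 and MLXIPL overlap.

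Of other genes known as SREBP targets, the larger part are in sterol synthesis and uptake. Of 29 measured, 18 fell, 0 rose and 11 did not pass edgeR's test, where 6.42% of all tested genes fell and 3.28% rose. At an unadjusted p under 0.05 and by DESeq2 0 rose, and the median log2 fold change was -0.53. With the replicate block 23 fell (16.7% of all) and 1 rose (17.2% of all). Without both replicate 3 libraries 23 fell (13.7% of all) and 0 rose (11.7% of all). Of the enzymes of sterol synthesis, MSMO1 fell to 53.7 ± 4.30 CPM in KO, against 116 ± 6.70 CPM in control, and SQLE to 46.4, 44.8 and 44.5 CPM in KO, against 78.8, 77.8 and 79.6 CPM in control. INSIG1 and LPIN1 are among the genes that are in this list and in another. The cholesterol part of this direction was known before the list was written, so the count is not independent support. GPAM, which starts triglyceride synthesis, did not pass, with 22.4 CPM in KO and 18.9 CPM in control (adjusted p = 0.319; 0.0122 with the block, higher), nor did PNPLA3, a lipid droplet protein, at 5.16 CPM in KO and 7.13 CPM in control (adjusted p = 0.082; 0.00704 with the block, lower).

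Genes that feed or share the 9 enzymes' reactions mostly did not pass. Among 17 partners in fatty acid synthesis, 2 fell and 0 rose, where 6.42% of all tested genes fell and 3.28% rose. SLC25A1, the mitochondrial citrate carrier that supplies ACLY, measured 64.6, 60.6 and 50.6 CPM in KO and 94.7, 89.0 and 70.2 CPM in control (edgeR adjusted p = 0.034 at a log2 fold change of -0.53, SE 0.13), and with 1 library left out it passed in 1 of 6 fits, that without control replicate 3. ACSS3, a mitochondrial short-chain acyl-CoA synthetase, averaged 16.4 ± 1.02 CPM in KO and 25.0 ± 0.29 CPM in control (log2 fold change -0.60, SE 0.08, edgeR adjusted p = 0.0023). ACACB, the second acetyl-CoA carboxylase, did not pass (9.92 CPM in KO, 8.46 CPM in control). Of 19 genes that supply NADPH, the reductant of fatty acid synthesis, IDH1, cytosolic isocitrate dehydrogenase, was the one that fell, with 56.8 ± 0.68 CPM in KO and 77.6 ± 3.03 CPM in control (edgeR adjusted p = 0.00222). Malic enzyme ME1 (24.1 CPM in KO, 28.3 CPM in control) did not pass (edgeR adjusted p = 0.202; 0.00734 with the block). With the replicate block 4 partners fell and 2 rose, and 5 NADPH genes fell and 6 rose, where 16.7% of all genes fell and 17.2% rose. Without both replicate 3 libraries 3 partners fell and 2 rose, and 2 NADPH genes fell and 3 rose (13.7% and 11.7% of all). Nothing is read from these counts.

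The rest of the elongation and desaturation machinery did not pass in the main fit, where 6.42% of all tested genes fell and 3.28% rose. Of 7 other elongation genes, edgeR called 0 (1 higher at an unadjusted p under 0.05, 0 by DESeq2), and of 10 other desaturases and electron carriers 0 (1 lower at an unadjusted p under 0.05, 0 by DESeq2). ELOVL1, which makes very long saturated chains, had 134 CPM in KO and 148 CPM in control (edgeR adjusted p = 0.385; 0.00422 with the block). The dehydratase HACD2 had 52.0 ± 4.33 CPM in KO and 43.6 ± 1.69 CPM in control (edgeR adjusted p = 0.0793). By edgeR its adjusted p was 3.05e-04 with the block, 0.0245 without both replicate 3 libraries and 0.0491 with no filter. SCD5, the other human stearoyl-CoA desaturase, measured 21.9, 22.8 and 28.9 CPM in KO and 26.6, 27.7 and 37.5 CPM in control. Its groups overlapped, while each KO library was below the control of the same number (edgeR adjusted p = 0.236; 2.33e-04 with the block). The SCD5 to SCD count ratio was 0.0274 to 0.0381 in KO and 0.0170 to 0.0251 in control. CYB5R3, the reductase that passes electrons to desaturases, had 81.0 ± 4.45 CPM in KO and 93.5 ± 4.84 CPM in control (edgeR adjusted p = 0.0926). By edgeR its adjusted p was 3.82e-04 with the block and 0.00128 without both replicate 3 libraries. With the block 1 elongation gene was lower and 1 higher, and 4 desaturation genes were lower and 1 higher (16.7% and 17.2% of all genes). Without both replicate 3 libraries 1 elongation gene was higher, and 3 desaturation genes were lower and 1 higher (13.7% and 11.7% of all). Nothing is read from these counts.

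Some genes that activate or take up fatty acids passed, where 6.42% of all tested genes fell and 3.28% rose. In lists this short nothing is read from the counts. Of 11 acyl-CoA synthetases 2 fell: SLC27A1, a transport protein with synthetase activity (21.6, 19.3 and 25.2 CPM in KO, 37.3, 37.8 and 39.9 CPM in control, edgeR adjusted p = 0.00164), and ACSF2, a medium-chain synthetase (-0.62, SE 0.09). Of 10 genes of uptake and binding 2 fell and 1 rose. VLDLR, a receptor for triglyceride-rich lipoproteins, was among those that fell, with 29.8 ± 0.95 CPM in KO and 44.4 ± 2.05 CPM in control (edgeR adjusted p = 0.00136). MFSD2A, a transporter of lysophospholipids that carry docosahexaenoate, rose to 16.6 ± 1.24 CPM in KO, against 11.9 ± 1.78 CPM in control (edgeR adjusted p = 0.0485), and with 1 library left out it passed in 1 of 6 fits, that without KO replicate 3. With the block 4 synthetases fell, and 4 uptake genes fell and 2 rose, where 16.7% of all genes fell and 17.2% rose. Without both replicate 3 libraries 5 synthetases fell, and 4 uptake genes fell and 2 rose (13.7% and 11.7% of all).

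Few genes of the routes that use or restrain fatty acids passed, where 6.42% of all tested genes fell and 3.28% rose. Of 39 fatty acid oxidation genes 2 fell, the isomerase ECH1 (log2 fold change -0.34, SE 0.08) and the thioesterase ACOT1 (-1.31, SE 0.30, at 0.89 ± 0.27 CPM in KO and 2.21 ± 0.48 CPM in control), and the list's median was -0.04. ACOT1 has a near-identical neighbour, ACOT2, so the division of their reads is uncertain. CPT1A, the entry step of oxidation, did not pass (97.7 CPM in KO, 84.4 CPM in control, edgeR adjusted p = 0.139; 1.14e-04 with the block, higher). Of 17 genes of AMPK, the kinase that inactivates acetyl-CoA carboxylase, and its regulators, PRKAA2 fell (23.9 ± 1.13 CPM in KO, 32.6 ± 2.87 CPM in control, edgeR adjusted p = 0.0136). PRKAA1, the gene of the other catalytic subunit, did not pass (134 CPM in KO, 124 CPM in control, edgeR adjusted p = 0.256; 0.0208 with the block, higher). Of 16 genes of phospholipid acyl chain remodelling 3 fell, LPCAT4 (log2 fold change -0.58, SE 0.08), MBOAT2 (-0.35, SE 0.09) and PLAAT3 (-0.29, SE 0.06). LPCAT3, which puts arachidonate into phospholipids, had 41.7 CPM in KO and 41.5 CPM in control. With the block 5 oxidation genes fell and 3 rose, 3 AMPK genes fell and 1 rose, and 6 remodelling genes fell and 1 rose. Of all genes 16.7% fell and 17.2% rose with the block. Without both replicate 3 libraries 4 oxidation genes fell and 2 rose, 1 AMPK gene fell, and 5 remodelling genes fell and 1 rose (13.7% and 11.7% of all). Nothing is read from these counts.

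**Figure D4:**
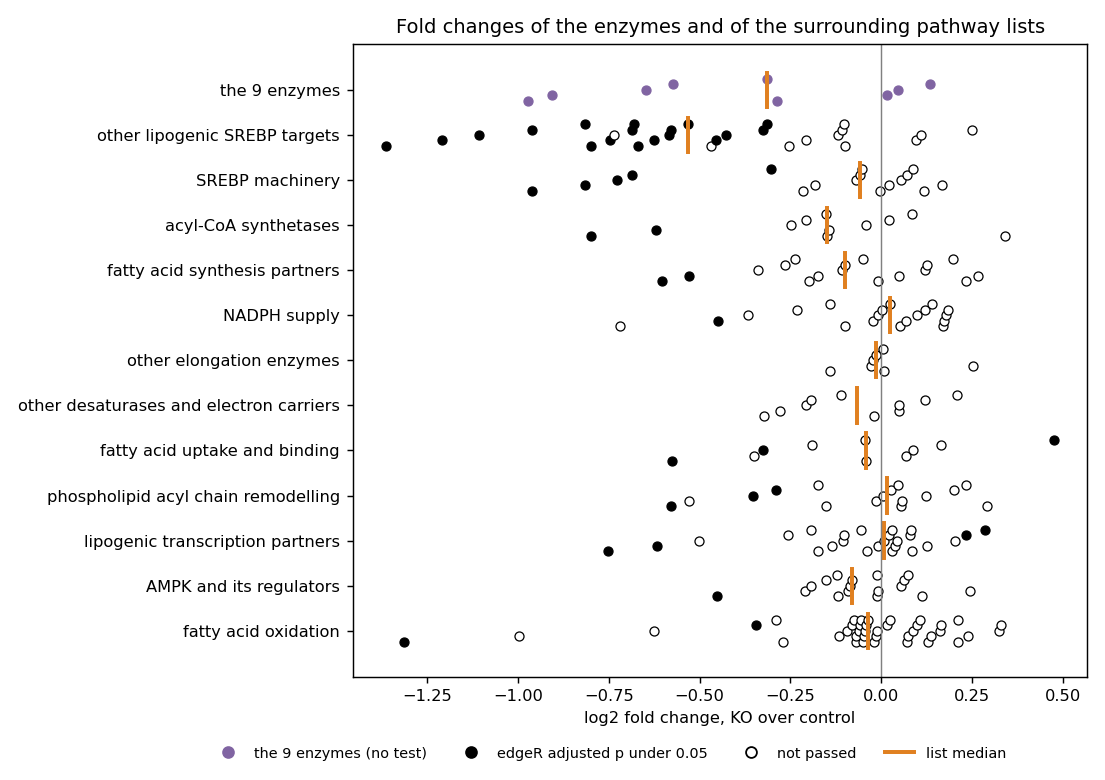
Log2 fold change, KO over control (x axis), of the 9 enzymes and of each measured gene of 12 pathway lists; filled black points passed edgeR's test at an adjusted p under 0.05, open points did not, and orange bars are medians. The enzymes run from -0.97 to 0.13; the lists with the lowest medians are the other SREBP targets (-0.53) and acyl-CoA synthetases (-0.15).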

How the data were processed

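The authors deposited raw counts of reads per gene. The submitters' processing notes name STAR 2.7.9a and featureCounts, besides FastQC 0.11.9 and R 4.1.1, and the build hg38. For annotation, strand setting and multi-mapping reads, nothing is given in the sources used here. Columns were matched to samples by library name; groups and replicate numbers come from the titles.

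Genes were kept by edgeR's filterByExpr and scaled with TMM factors. The quasi-likelihood test (robust, group as the single term, R 4.3.3, edgeR 4.0.16) ran over all 14704 genes with Benjamini-Hochberg adjustment at 0.05. The alternatives were DESeq2 1.42.0, its size factors, upper-quartile factors, no filter, the replicate block, and leaving out each library or both numbered 3. Lengths and positions are from GENCODE 29 (GRCh38). The 9 genes and the 12 pathway lists, with 239 genes, were chosen with earlier results of these data known. Named are all 9, up to 3 list genes per direction with the smallest adjusted p (where none passed, the one with the smallest), fixed regulators, and the 5 nearest profiles; ACACB, ME1, SCD5, ELOVL1, GPAM, PNPLA3, CPT1A, PRKAA1, LPCAT3, LPIN1, RNF145 and the markers VIM, KRT19, LYZ and PPARG were added for their roles after their values were seen. Some genes that this rule selects are counted in their lists but not reported here by name.

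Same-numbered libraries deviated together from their group means (r = 0.55, 0.45 and 0.83 across 10032 genes, which are not independent). Each mean is of 3 libraries, so with replicate 3 apart in both groups, replicates 1 and 2 correlate across groups however they are paired. Among them the crossed pairs correlated slightly more (0.59 and 0.58), so the data pair replicate 3 only, and the labels pair none. The fit with the replicate number as a block is given beside a result where it changes the call, except for cell type markers. Those are given as levels, and the block changes the call of some of them, VIM and PPARG included. The tests otherwise have no block. No replicate pair matched within sampling noise (chi-square per degree of freedom at least 3.88).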

Additional observations from a re-analysis of the deposited data

How the results depend on the processing

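The log2 fold changes of the 9 enzymes kept their direction under all 12 alternatives where the gene had been called; SCD ran from -0.99 to -0.94, ACSS2 from -0.93 to -0.86, FADS2 from -0.69 to -0.57, FASN from -0.62 to -0.52 and FADS1 from -0.36 to -0.24. ACLY, which was not called, ran from -0.35 to -0.21, while ACACA (-0.02 to 0.13) and ELOVL5 (-0.02 to 0.09) took both signs. With 1 library left out, 4 to 6 of the 9 were called lower; FADS1 was not called without KO replicate 1 or 2 or control replicate 1 or 2. The replicate block called 1 of the 9 higher. The median of all genes stayed between -0.01 and 0.01.

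Counts over many genes depended on replicate 3 and on the block. Of all tested genes, 944 were lower and 483 higher; with the replicate block 2461 and 2522, without both replicate 3 libraries 2023 and 1731, and with 1 library left out 436 to 964 and 136 to 777. In the 12 pathway lists, each of 212 tested genes counted once, 35 were lower (6.42% of all tested genes) and 3 higher (3.28% of all). With the block they were 68 and 22 (16.7% and 17.2% of all). Without both replicate 3 libraries they were 58 and 15 (13.7% and 11.7% of all), and with 1 library left out 25 to 37 and 0 to 6. The cause was not tested. Under both other scalings, no filter and DESeq2 these counts stayed within 1.5 times. Of the 35 lower list genes of the main fit, 18 were in the list of other SREBP targets and 5 in the SREBP machinery. INSIG1 and LPIN1 were in both. The lists were written with earlier results of these data known, so nothing is read from the pooled counts. The SREBP machinery had 4 to 5 lower genes and the other SREBP targets 16 to 19 with 1 library left out. Among named genes that passed, PRKAA2 missed the threshold without KO replicate 1 or control replicate 2, BHLHE41 without KO replicate 1 or 2 or control replicate 2, CREBBP without KO replicate 2 or control replicate 1 or 2, ACOT1 without KO replicate 1 or control replicate 1 or 3, MBOAT2 without any one of KO replicates 1 and 3 and control replicates 1 and 2, and ECH1 and PLAAT3 without any one of replicates 1 and 2 of either group. Genes of about 1 CPM, such as ACOT1, are limited by depth.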
